A study of Mus musculus with 16 samples.

Results

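H2-Aa, H2-Ab1, H2-Eb1, H2-DMa, H2-DMb1, Cd74, Ciita and Ifi30 are the mouse genes of MHC class II antigen presentation described here, on arrays of activated CD8 T cell clones. The 8 genes were taken by symbol from the platform annotation, in which 19938 genes have a probe set of their own; 7 of the 8 are among these. The genes were listed with results of these arrays in view, so they count as chosen by their log2 values on these 16 arrays, in every comparison below, and their differences between groups are given as a description with no p-value. Each gene has 1 probe set, and H2-DMb1 shares its probe set with its near copy H2-DMb2, so the signals of these copies cannot be told apart. H2-Aa, H2-Ab1, H2-Eb1, H2-DMa and H2-DMb1 lie on chromosome 17, Cd74 on chromosome 18, Ciita on chromosome 16 and Ifi30 on chromosome 8.

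MHC class II molecules are pairs of an alpha and a beta chain that carry peptides from endosomes to the cell surface, where CD4 T cells read them. The invariant chain, encoded by Cd74, holds new pairs together and fills their groove, H2-DM exchanges its last fragment for peptide, and the thiol reductase encoded by Ifi30 (GILT) opens disulfide bonds of antigens in lysosomes. Ciita encodes the coactivator on which class II genes depend; it is inducible by interferon gamma and acts through the X and Y boxes of class II promoters, which RFX, CREB and NF-Y bind. B cells, dendritic cells and macrophages are the usual class II cells, and mouse T cells, unlike activated human T cells, are in general held not to make class II.

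The 16 arrays fall into 4 groups of 4. The unconventional clone, labelled a cyclosporine-resistant CD8 T cell, was activated with immobilized anti-CD3 plus cyclosporine A at 1 ug/ml, or with anti-CD3 alone. The conventional clone, labelled a cyclosporine-sensitive CD8 T cell, was treated in the same 2 ways. Cyclosporine A blocks the phosphatase calcineurin and through it the NFAT factors. All groups were activated in medium free of added cytokines, after growth in a mixture of IL-1a, IL-6, IL-7, IL-15, TNF-α, IFN4-α and IFN-g, so every group had met interferon gamma before. Each cell type is represented by 1 clone, the mouse strain is not given in the labels, and no unstimulated cells were analysed here. Whether the 4 samples of a group were separate cultures is not given in the labels either, so every error and p-value covers the spread among these samples alone, which may be technical.

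Values are the deposited log2 expression values, which ran from 2.08 to 14.55 over 28853 probe sets, with array medians of 5.16 to 5.35. The precision is limited by the number of arrays. Near the lower end the values are background, where a fold usually understates the change in RNA. Arrays of 1 group correlated at 0.995 to 0.998. A probe set is written as called where limma gave an adjusted p under 0.05 over all probe sets. The gene lists below were also chosen with earlier results of these arrays known, and many of their genes were named for a large change. Their p-values describe these arrays and are not independent tests. As a check of the T cell label, 7 of 10 T cell markers lay above the median of all values, 5.24, in every group, while Cd4, Cd2 and Cd5 lay under it. Cd8a, a chain of the CD8 co-receptor, stood at 8.56 ± 0.14 with cyclosporine A and 10.31 ± 0.07 without in the unconventional clone, against 11.92 ± 0.10 and 12.50 ± 0.11 in the conventional clone (SD, n = 4 each).

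Promoter sequences were available for 5 of the 8 genes from RefSeq's starts on GRCm38.p6; H2-Ab1, Cd74 and Ciita are only named. The 160 bases before the start are printed for class II genes on either side of the clone difference and for Ifi30, so that the boxes through which Ciita acts can be seen. Capitals mark TGATTGG, the letters of the Y box, and GNAAC, a core of the X box. GNAAC is marked only where TGATTGG follows on the same strand with at most 40 bases between them. These letters were chosen after the sequences were seen.
H2-Aa, chr17:34287824-34287983, minus strand: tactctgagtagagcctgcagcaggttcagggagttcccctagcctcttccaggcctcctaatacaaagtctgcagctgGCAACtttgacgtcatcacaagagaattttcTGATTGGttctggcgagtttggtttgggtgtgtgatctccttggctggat
H2-Eb1, chr17:34305707-34305866, plus strand: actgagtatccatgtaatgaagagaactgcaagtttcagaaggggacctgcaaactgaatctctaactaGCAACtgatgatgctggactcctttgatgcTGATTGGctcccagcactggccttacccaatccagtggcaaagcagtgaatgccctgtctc
H2-DMb1, chr17:34153031-34153190, plus strand: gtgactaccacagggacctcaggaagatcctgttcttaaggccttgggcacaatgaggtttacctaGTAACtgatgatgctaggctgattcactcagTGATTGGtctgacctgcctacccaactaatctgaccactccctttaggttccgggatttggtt
H2-Ob, chr17:34238745-34238904, plus strand: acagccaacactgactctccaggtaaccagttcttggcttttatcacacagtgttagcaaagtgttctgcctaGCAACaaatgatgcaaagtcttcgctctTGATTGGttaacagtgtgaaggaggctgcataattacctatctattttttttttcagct
Ifi30, chr8:70766664-70766823, minus strand: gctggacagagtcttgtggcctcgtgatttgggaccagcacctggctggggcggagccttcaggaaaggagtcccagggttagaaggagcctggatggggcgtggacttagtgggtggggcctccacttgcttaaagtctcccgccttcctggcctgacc

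In H2-Aa, H2-Eb1 and H2-DMb1 the marked letters begin 50, 61 and 63 bases before the start for TGATTGG, with 26, 25 and 26 bases between the 2 motifs. H2-Ob, the beta chain of the H2-O inhibitor of H2-DM, holds both with 23 bases between, and so do H2-Oa and H2-Eb2, with 26 and 25. H2-DMb2 holds TGATTGG 92 bases before its start and no GNAAC before it, and neither start of H2-DMa nor that of Ifi30 holds TGATTGG in this window. Read on both strands, TGATTGG was in 5.93% of 32851 promoter windows of the same length and GNAAC in 63.9%. GNAAC followed by TGATTGG with at most 40 bases between them was in 0.694%. A match is a description of letters; H2-Aa, H2-Eb1 and H2-Ob share it, although H2-Ob lay under the array medians in both clones.

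H2-Aa, H2-Ab1, H2-Eb1 and Cd74 were high in the unconventional clone, with or without cyclosporine A. Their group means were 7.10 to 10.33 there, against 4.11 to 5.80 in the conventional clone. The unconventional clone stood above it with anti-CD3 alone by 4.59 on the log2 scale for H2-Aa, 3.59 for H2-Ab1, 2.66 for H2-Eb1, 4.64 for Cd74 and 5.70 for Ifi30. H2-DMa, H2-DMb1 and Ciita differed by less than 1. With anti-CD3 alone 8 of 8 genes were called, all higher, where 37.8% of all probe sets were called, 18.1% as higher and 19.7% as lower. With cyclosporine A 5 of 8 were called, all higher, where 39.4% of all probe sets were called, 18.6% as higher and 20.8% as lower. The groups of the clones did not overlap for 7 of 8 genes with anti-CD3 alone, all but Ciita, where 35.8% of all probe sets did not overlap. With cyclosporine A they did not overlap for 6 of 8, all but H2-DMa and Ciita, where 38.3% of all probe sets did not. H2-Aa, H2-Ab1, H2-Eb1, Cd74 and Ifi30 passed a 4-fold difference in both conditions, where 1.97% of all probe sets were called at that size with anti-CD3 alone and 2.69% under the drug. Centring arrays on their medians turned the split of all calls with anti-CD3 alone to 5751 higher and 3821 lower, against 5223 and 5681 as deposited, and that under the drug to 5529 higher and 4571 lower, against 5356 and 6004. For cyclosporine A in the unconventional clone it gave 2211 higher and 3273 lower, against 2932 and 3013 as deposited. Arrays of whole cultures cannot tell fewer cells with a transcript apart from less of it per cell.

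**Figure D1:**
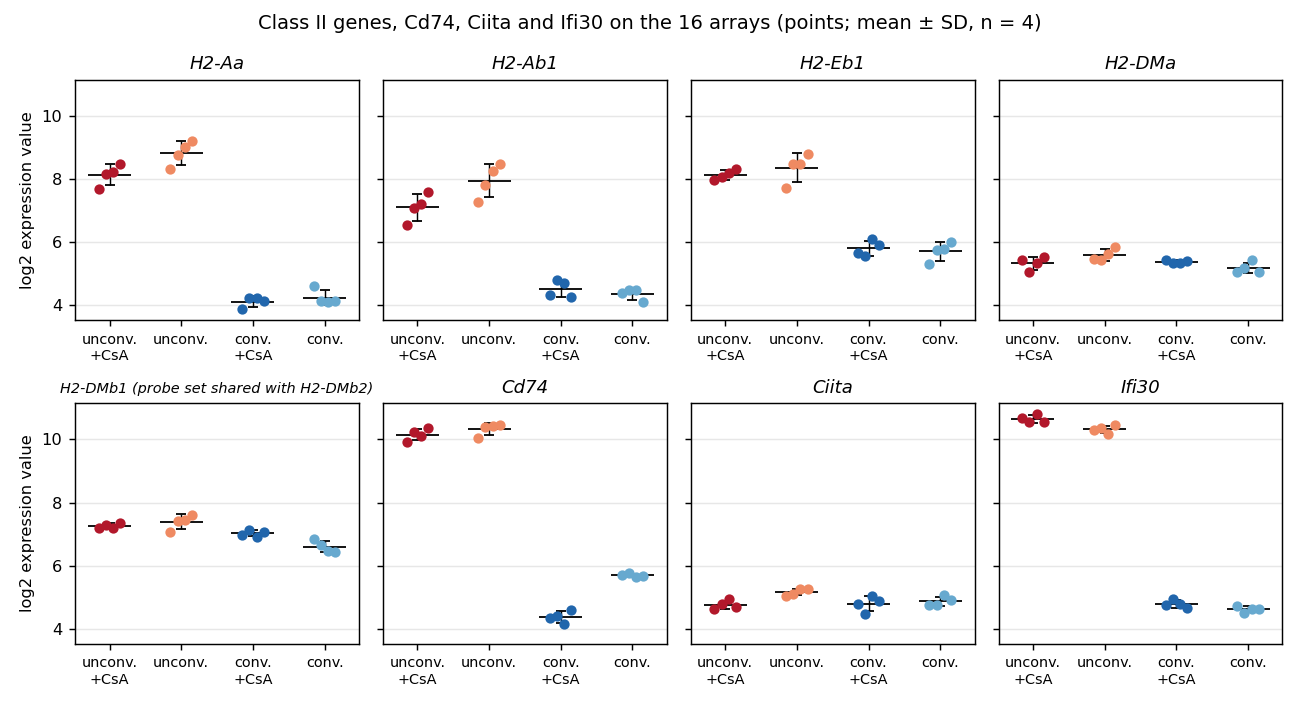
Deposited log2 expression values of the 8 genes (y axis) in the 4 groups (x axis; unconv. and conv. are the clones, +CsA is with cyclosporine A), with a point per array and the mean ± SD (n = 4). H2-Aa, H2-Ab1, H2-Eb1, Cd74 and Ifi30 stand apart between the clones, Cd74 falls with cyclosporine A in the conventional clone, and H2-DMa and Ciita lie between 4.47 and 5.84 in every group.

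H2-Aa, the alpha chain of the I-A molecule, had log2 values of 7.67, 8.15, 8.22 and 8.47 in the unconventional clone with cyclosporine A, against 8.31, 8.76, 8.998 and 9.21 with anti-CD3 alone. In the conventional clone the values were 3.87, 4.21, 4.22 and 4.14 with cyclosporine A, against 4.60, 4.11, 4.10 and 4.11 without. The 8 arrays of the unconventional clone all lay above the 8 of the conventional clone, and 1 conventional array without the drug, at 4.60, stood apart from its group. The unconventional clone was 24.0-fold higher with anti-CD3 alone (4.59, SE 0.18) and 16.2-fold higher with cyclosporine A (4.02, SE 0.18). Cyclosporine A lowered H2-Aa in the unconventional clone by a called -0.69 (SE 0.18), with overlapping groups, and its change of -0.12 (SE 0.18) in the conventional clone was not called.

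H2-Ab1, the beta chain that pairs with H2-Aa, had values of 6.54, 7.08, 7.20 and 7.57 in the unconventional clone with cyclosporine A, against 7.28, 7.79, 8.24 and 8.46 with anti-CD3 alone. The conventional clone had 4.32, 4.81, 4.69 and 4.26 with cyclosporine A, against 4.37, 4.48, 4.47 and 4.09 without. As for H2-Aa, the clones did not overlap, while the drug groups of each clone did. The clone difference was 3.59 (SE 0.23), or 12.1-fold, with anti-CD3 alone and 2.58 (SE 0.23), or 5.98-fold, with cyclosporine A. Cyclosporine A changed H2-Ab1 by a called -0.85 (SE 0.23) in the unconventional clone and by 0.17 (SE 0.23), not called, in the conventional clone.

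H2-Eb1, the beta chain of the I-E molecule, had values of 7.96, 8.05, 8.20 and 8.30 in the unconventional clone with cyclosporine A, against 7.70, 8.48, 8.48 and 8.78 with anti-CD3 alone. The conventional clone had 5.65, 5.56, 6.08 and 5.91 with cyclosporine A, against 5.29, 5.75, 5.78 and 6.001 without. The lowest unconventional array lay above the highest conventional one. H2-Eb1 was 6.30-fold higher in the unconventional clone with anti-CD3 alone (2.66, SE 0.19) and 5.01-fold higher with cyclosporine A (2.33, SE 0.19). Its drug changes of -0.23 (SE 0.19) in the unconventional clone and 0.10 (SE 0.19) in the conventional clone were not called, but without the unconventional anti-CD3 array of replicate 1, the 7.70, that of the unconventional clone was called at -0.45. H2-Ea, the alpha chain that H2-Eb1 pairs with, had group means of 3.76, 3.76, 3.82 and 3.89 in the same order of groups and was called in no comparison. Mice of several MHC haplotypes carry a silent Ea gene, and the haplotype of these clones is not given in the labels.

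Cd74, the invariant chain, had values of 9.93, 10.25, 10.11 and 10.35 in the unconventional clone with cyclosporine A, against 10.04, 10.39, 10.44 and 10.47 with anti-CD3 alone. In the conventional clone they were 4.33, 4.41, 4.16 and 4.61 with cyclosporine A, against 5.70, 5.76, 5.64 and 5.66 without. The conventional groups did not overlap with each other, and the unconventional groups did. Cyclosporine A lowered Cd74 in the conventional clone by 2.48-fold (-1.31, SE 0.11), to a level under the array medians, and its change in the unconventional clone was -0.18 (SE 0.11), not called. The clone difference was 4.64 (SE 0.11), or 25.0-fold, with anti-CD3 alone and 5.78 (SE 0.11), or 55.0-fold, with cyclosporine A.

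H2-DMa, the alpha chain of H2-DM, had values of 5.42, 5.04, 5.32 and 5.53 in the unconventional clone with cyclosporine A, against 5.47, 5.43, 5.61 and 5.84 with anti-CD3 alone. The conventional clone had 5.43, 5.33, 5.33 and 5.41 with cyclosporine A, against 5.05, 5.16, 5.41 and 5.05 without. All 16 values lay within 1 log2 unit, near the array medians. With anti-CD3 alone the unconventional clone was higher by 0.42 (SE 0.11), and with cyclosporine A the difference was -0.05 (SE 0.11), not called. The drug changed H2-DMa by -0.26 (SE 0.11) in the unconventional clone and by 0.21 (SE 0.11) in the conventional clone, neither called.

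The probe set of H2-DMb1 and H2-DMb2, the H2-DM beta chains, had values of 7.20, 7.29, 7.18 and 7.37 in the unconventional clone with cyclosporine A, against 7.07, 7.43, 7.45 and 7.62 with anti-CD3 alone. The conventional clone had 6.98, 7.12, 6.92 and 7.08 with cyclosporine A, against 6.84, 6.67, 6.48 and 6.44 without. In contrast to the I-A chains it lay above the array medians on all 16 arrays. Cyclosporine A raised it in the conventional clone by 0.42 (SE 0.11), with no overlap, and changed it by -0.13 (SE 0.11), not called, in the unconventional clone. The clones differed by 0.78 (SE 0.11) with anti-CD3 alone and by 0.23 (SE 0.11), not called, with cyclosporine A, the groups not overlapping in either condition.

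Ciita, the coactivator, had values of 4.61, 4.78, 4.93 and 4.69 in the unconventional clone with cyclosporine A, against 5.05, 5.09, 5.26 and 5.25 with anti-CD3 alone. The conventional clone had 4.80, 4.47, 5.04 and 4.87 with cyclosporine A, against 4.74, 4.74, 5.06 and 4.92 without. The 16 values ran from 4.47 to 5.26, under the highest array median. With anti-CD3 alone the clones overlapped and the unconventional clone was higher by a called 0.30 (SE 0.11); the call was lost without any one of the unconventional arrays of replicates 3 and 4 or the conventional arrays of replicates 1, 2 and 4. Over the 16 fits that each left out 1 array, kept calls included, the difference ran from 0.26 to 0.36. With cyclosporine A the difference was -0.04 (SE 0.11), not called. The drug lowered Ciita in the unconventional clone by 0.41 on the log2 scale (SE 0.11), with no overlap, and changed it by -0.07 (SE 0.11), not called, in the conventional clone.

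Ifi30, the thiol reductase, had values of 10.69, 10.55, 10.80 and 10.57 in the unconventional clone with cyclosporine A, against 10.29, 10.35, 10.17 and 10.46 with anti-CD3 alone. The conventional clone had 4.77, 4.93, 4.79 and 4.65 with cyclosporine A, against 4.74, 4.51, 4.62 and 4.63 without. Every unconventional array was above 10 and every conventional array under 5. The clone difference of 5.70 (SE 0.08) with anti-CD3 alone, 51.8-fold, ranked 8 among the rises of all 28853 probe sets, and that of 5.87 (SE 0.08) with cyclosporine A, 58.4-fold, ranked 7. Cd74 ranked 25 with anti-CD3 alone and 10 with the drug, and H2-Aa 26 and 75. Unlike the class II chains, Ifi30 was higher with cyclosporine A in the unconventional clone, by 0.33 (SE 0.08) and with no overlap, and its change of 0.16 (SE 0.08) in the conventional clone was not called.

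**Figure D2:**
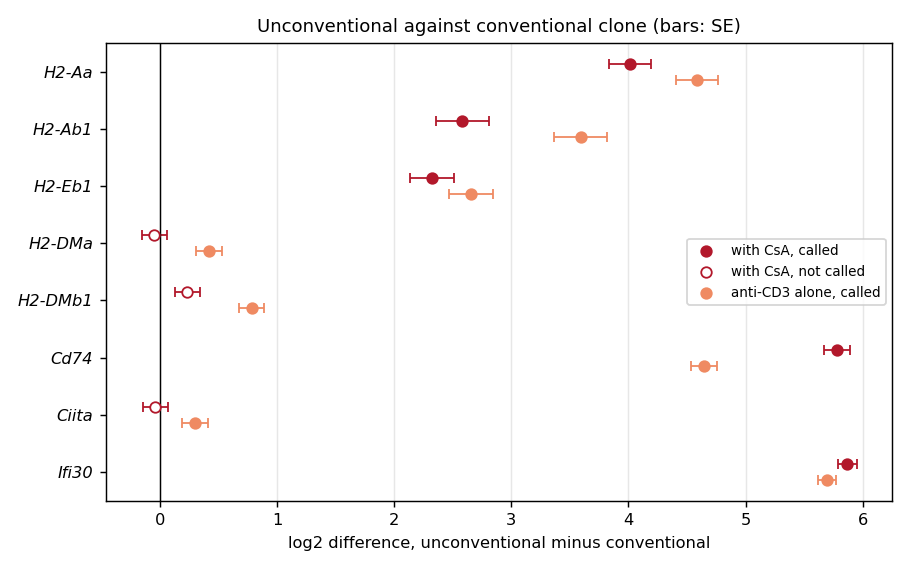
Log2 difference of each gene, unconventional minus conventional clone (x axis), with cyclosporine A (CsA) and with anti-CD3 alone; points are the fitted differences, filled where called, and bars are the SE. H2-Aa, H2-Ab1, H2-Eb1, Cd74 and Ifi30 lie between 2.33 and 5.87, and H2-DMa, H2-DMb1 and Ciita between -0.05 and 0.78.

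The counts of the 8 genes called with cyclosporine A are given beside those of all probe sets, and nothing about the 8 genes is read from them. In the unconventional clone 4 of 8 were called, H2-Aa, H2-Ab1 and Ciita lower and Ifi30 higher, where 20.6% of all probe sets were called, 10.2% as higher and 10.4% as lower. The drug groups of that clone did not overlap for 2 of 8, Ciita and Ifi30, where 23.9% of all probe sets did not. In the conventional clone 2 of 8 were called, Cd74 lower and the H2-DMb1 probe set higher, where 27.2% of all probe sets were called, 13.5% as higher and 13.7% as lower. The same 2 did not overlap between the drug groups there, where 27.1% of all probe sets did not. Past 4-fold 0 of 8 changed with the drug in either clone, where 0.357% of all probe sets did so in the unconventional clone and 0.787% in the conventional clone. The difference of the drug's effects, unconventional minus conventional, was called for 3 of 8 genes, 1 higher and 2 lower, where 12.9% of all probe sets were called, 6.77% as higher and 6.09% as lower. None of the 3 passed 4-fold, where 0.371% of all probe sets did. It was 1.14 (SE 0.15) for Cd74, -0.55 (SE 0.15) for the H2-DMb1 probe set and -1.01 (SE 0.32) for H2-Ab1, and the call of H2-Ab1 was lost when any one of 12 of the 16 arrays was left out. H2-Aa, at -0.57 (SE 0.25), was not called and had a like direction to its partner chain. The median change over the 8 genes was -0.25 in the unconventional clone and 0.13 in the conventional clone, where that of all probe sets was 0.01 in both.

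**Figure D3:**
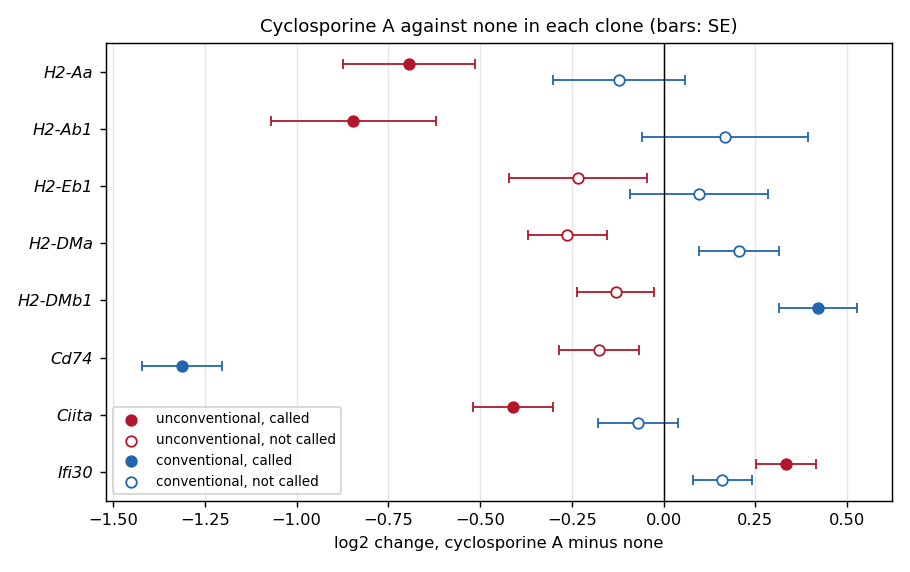
Log2 change with cyclosporine A against none (x axis) for each gene in the unconventional and the conventional clone; points are the fitted changes, filled where called, and bars are the SE. H2-Aa, H2-Ab1, H2-Eb1, H2-DMa, H2-DMb1, Cd74 and Ciita lie at or left of -0.13 in the unconventional clone. Cd74 in the conventional clone, at -1.31, lies farthest from 0.

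In the unconventional clone the I-A chains also varied between arrays of 1 group more than nearly any other transcript. The SD of H2-Ab1 was 0.42 over the unconventional arrays with cyclosporine A and 0.52 over those with anti-CD3 alone, larger than that of 99.8% of probe sets in both. The SD of H2-Aa, 0.33 and 0.39, was larger than that of 99.2% and 99.0%. H2-Eb1, at 0.15 and 0.46, passed 81.0% and 99.5%, and Cd74, at 0.19 and 0.20, passed 89.3% and 86.9%. The median SD of all probe sets was 0.0967 with cyclosporine A and 0.113 with anti-CD3 alone. In the conventional clone, where both chains were low, the SD of H2-Aa passed 67.5% of probe sets with the drug and 91.4% without, and that of H2-Ab1 passed 92.8% and 77.2%. In both unconventional groups the array of replicate 1 was lowest and that of replicate 4 highest for H2-Aa, H2-Ab1, H2-Eb1 and Cd74. H2-DMa and the H2-DMb1 probe set were also highest on the array of replicate 4 in both. Ciita was also lowest on the array of replicate 1 in both groups but highest on that of replicate 3, and Ifi30 was highest on the array of replicate 4 with anti-CD3 alone and had its other extremes elsewhere. The SDs of Ciita and Ifi30 passed 73.0% and 63.7% of probe sets with cyclosporine A, against 47.7% and 55.9% with anti-CD3 alone. Whether the arrays with the same number shared a culture or a day is not given in the labels.

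**Figure D4:**
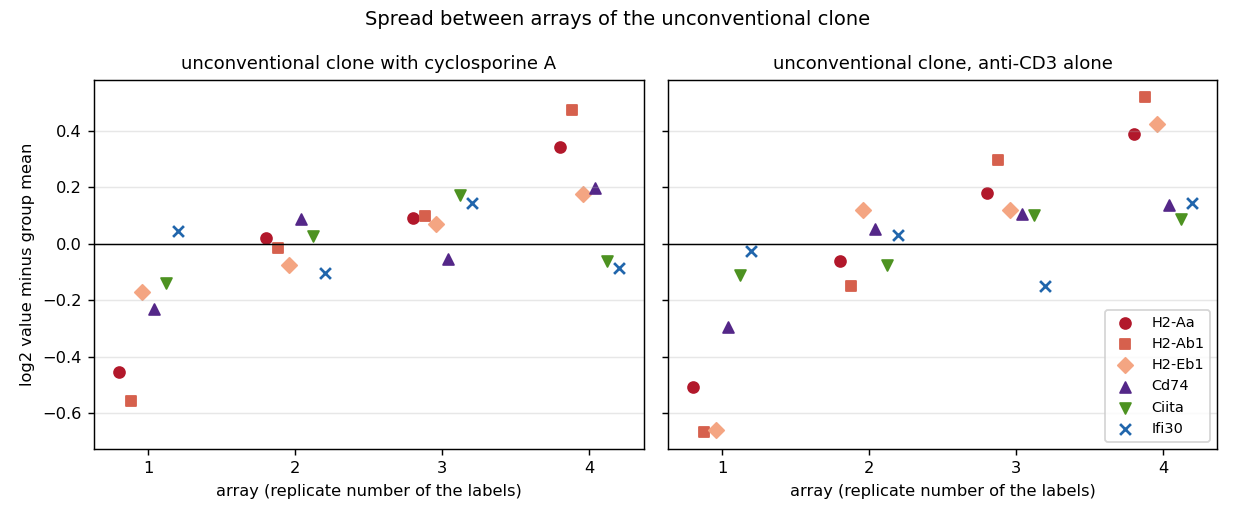
Log2 value of 6 genes minus its group mean (y axis) on the 4 arrays (x axis, by the labels' replicate numbers, which have no order) of the unconventional clone with cyclosporine A (left) and with anti-CD3 alone (right). H2-Aa, H2-Ab1, H2-Eb1 and Cd74 are lowest on the array of replicate 1 and highest on that of replicate 4 in both panels; Ciita is lowest on the array of replicate 1 and highest on that of replicate 3 in both, and Ifi30 is highest on that of replicate 4 with anti-CD3 alone.

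The transcription factors of class II promoters had group means above the median of all values in both clones and were called in both directions. Of 7 measured, with anti-CD3 alone 2 were higher and 1 lower in the unconventional clone, and with cyclosporine A 3 were higher and 2 lower. Rfx5, the DNA-binding subunit of RFX, stood at 7.24 ± 0.05 with cyclosporine A and 7.13 ± 0.09 without in the unconventional clone, against 6.46 ± 0.16 and 6.97 ± 0.09 in the conventional clone (SD, n = 4 each). The change of Rfx5 with cyclosporine A did not pass the test in the unconventional clone (0.11, SE 0.08) and was a fall in the conventional clone (-0.51, SE 0.08, limma adjusted p = 4.48e-05), and the 2 changes differed (0.62, SE 0.11, adjusted p = 0.000704). In all the drug raised 2 and lowered 2 of the 7 in the unconventional clone, and raised 1 and lowered 4 in the conventional clone. Rfxank, the ankyrin-repeat subunit of RFX, rose with the drug in both, by 0.72 (SE 0.08) in the unconventional clone and by 0.96 (SE 0.08) in the conventional clone.

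Of 9 cofactors and repressors around Ciita, 7 were higher and 0 lower in the unconventional clone with cyclosporine A, and 4 were higher and 1 lower with anti-CD3 alone. Prdm1, which encodes Blimp-1, a repressor of Ciita in plasma cells, changed with the drug in opposite directions. It rose in the unconventional clone (0.78, SE 0.08) and fell in the conventional clone (-0.52, SE 0.08), with a difference of 1.30 (SE 0.11, limma adjusted p = 1.43e-07). Without the drug Prdm1 was lower in the unconventional clone (-0.86, SE 0.08, adjusted p = 3.02e-08). Ezh2, the histone H3 lysine methyltransferase of Polycomb, was higher in the unconventional clone, by 1.42 (SE 0.08) with cyclosporine A and 0.43 (SE 0.08) with anti-CD3 alone. The drug lowered Ezh2 in both clones. With the drug 2 of the 9 rose and 3 fell in the unconventional clone, and 1 rose and 5 fell in the conventional clone.

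Of 5 other genes listed for the class II region, which leaves aside the class I presentation genes that also lie there, H2-Ea, H2-Eb2, H2-Oa and H2-Ob had group means between 3.73 and 5.03, under the array medians, and were called in no comparison. H2-Oa and H2-Ob encode the chains of H2-O, which is found chiefly in B cells and inhibits H2-DM. Brd2, a widely expressed bromodomain gene of the same region, was lower in the unconventional clone (-0.88, SE 0.07, with anti-CD3 alone; -0.99, SE 0.07, with cyclosporine A). It was the only one of the 5 called in any comparison, cyclosporine A in the unconventional clone included (-0.26, SE 0.07).

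Among 14 genes of endosomal proteases and class II handling, 4 were higher and 6 lower in the unconventional clone with anti-CD3 alone, and 5 higher and 3 lower with the drug. Lgmn, legumain, which cleaves antigens and proteases in endosomes, had the largest clone difference of the list. It had a level of 8.69 ± 0.19 with cyclosporine A and 7.37 ± 0.11 without in the unconventional clone, against 5.13 ± 0.16 and 5.05 ± 0.13 in the conventional clone (SD, n = 4 each). The clone difference was 2.32 (SE 0.10, limma adjusted p = 2.18e-12) with anti-CD3 alone and 3.56 (SE 0.10, adjusted p = 4.14e-15) with cyclosporine A, and the drug raised Lgmn in the unconventional clone by 1.32 (SE 0.10). Ctss, cathepsin S, which cuts the invariant chain, was higher in the unconventional clone by 0.71 (SE 0.11, adjusted p = 4.60e-05) with anti-CD3 alone, at levels of 4.99 in the unconventional and 4.28 in the conventional clone, under the array medians. Ctsz, cathepsin Z, fell with the drug, with changes of -0.74 (SE 0.07) in the unconventional clone and -2.27 (SE 0.07) in the conventional clone. In all, the drug raised 5 and lowered 1 of the 14 in the unconventional clone, and raised 2 and lowered 4 in the conventional clone.

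Interferon gamma is the usual inducer of Ciita outside antigen-presenting cells, and most called genes of its axis were lower in the unconventional clone with anti-CD3 alone. Of 11 genes of interferon gamma signalling 0 were higher there and 6 lower, and of 13 interferon gamma induced genes 1 was higher and 8 were lower. With cyclosporine A 2 and 3 of the signalling genes, and 3 and 6 of the induced genes, were higher and lower. Ifng itself was lower in the unconventional clone, with differences of -0.77 (SE 0.11, limma adjusted p = 1.91e-05) with anti-CD3 alone and -2.62 (SE 0.11, adjusted p = 1.07e-12) with the drug. Irgm1, an interferon-induced GTPase, was lower in the unconventional clone with anti-CD3 alone (-2.10, SE 0.13, adjusted p = 2.38e-10). Irf1, a factor that activates the interferon-inducible promoter of Ciita, rose with cyclosporine A in the unconventional clone (0.66, SE 0.09) and fell in the conventional clone (-1.42, SE 0.09), a difference of 2.07 (SE 0.13, adjusted p = 7.79e-09). Cyclosporine A raised 2 and lowered 4 of the signalling genes in the unconventional clone, and raised 1 and lowered 7 in the conventional clone. Of the induced genes it raised 6 and lowered 2 in the unconventional clone, and raised 3 and lowered 5 in the conventional clone. The part of interferon gamma, which all groups had met before, in the clone difference of the class II genes was not tested.

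Class I presentation genes were called in both directions. Of 11 genes measured 3 were higher and 6 lower in the unconventional clone in both conditions. Nlrc5, the relative of Ciita that activates class I genes, was lower there (-1.02, SE 0.09, limma adjusted p = 2.63e-08, with anti-CD3 alone; -1.33, SE 0.09, adjusted p = 4.78e-10, with cyclosporine A). So was the peptide transporter Tap1 (-1.12, SE 0.07, adjusted p = 1.44e-10; -0.84, SE 0.07, adjusted p = 4.89e-09). The drug raised 6 and lowered 2 of the 11 in the unconventional clone, and raised 3 and lowered 4 in the conventional clone. Of 8 co-stimulatory ligands of antigen-presenting cells, 0 were higher and 2 lower in the unconventional clone with anti-CD3 alone, and 2 were higher and 2 lower with the drug. The drug lowered 2 of the 8 ligands in the unconventional clone and 4 in the conventional clone, and raised 0 in both. Of 9 reference genes, 2 were higher and 1 lower with anti-CD3 alone, and 3 were higher and 1 lower with the drug. The drug raised 2 and lowered 1 reference gene in the unconventional clone, and raised 1 and lowered 2 in the conventional clone.

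The medians of these lists lay far from that of the 8 genes, whose median clone difference was 3.12 with anti-CD3 alone and 2.45 under the drug, beside -0.07 and -0.08 over all probe sets. With anti-CD3 alone the median was 0.11 for the transcription factors, 0.24 for the cofactors and repressors, -0.01 for the other genes of the region and -0.08 for the endosomal genes. It was -0.27 for interferon gamma signalling, -0.60 for the induced genes, -0.27 for class I presentation, -0.04 for the co-stimulatory ligands and -0.02 for the reference genes. With cyclosporine A against none in the unconventional clone, the list medians ran from -0.04 for the induced genes to 0.22 for class I presentation, and in the conventional clone from -0.80 for interferon gamma signalling to 0.10 for class I presentation. The 8 genes were listed for results on these arrays, and nothing particular to them is read from this.

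Markers of the usual class II cells lay low on the arrays with high class II, with few exceptions. Of 12 B cell markers, 12 had group means under the median of all values, 5.24, in both unconventional groups, and the mean over the list ran from 3.94 to 4.03 with cyclosporine A and from 3.90 to 4.02 without. In the conventional clone it ran from 3.99 to 4.19 with cyclosporine A and from 4.31 to 4.36 without, and the 1 marker above the median there was Ebf1, at 7.80 ± 0.13 without the drug (SD, n = 4). With anti-CD3 alone 0 B cell markers were higher and 2 lower in the unconventional clone, with cyclosporine A 0 were higher and 1 lower. The drug raised 1 in the unconventional clone and lowered 1, Ebf1, in the conventional clone.

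Of 22 macrophage and dendritic cell markers, 20 lay under the median of all values in both unconventional groups and 19 in both conventional groups. The mean over the list ran from 4.53 to 4.59 with cyclosporine A and from 4.45 to 4.56 without in the unconventional clone, against 4.58 to 4.71 and 4.46 to 4.55 in the conventional clone. The 2 above the median of all values in every group were Itgax, the CD11c chain that activated CD8 T cells can also make, and Cd68, a lysosomal membrane protein. In each conventional group a further marker lay above that median. Cd68 was higher in the unconventional clone (1.44, SE 0.12, limma adjusted p = 2.57e-08, with anti-CD3 alone; 1.08, SE 0.12, adjusted p = 8.58e-07, with cyclosporine A). Itgax was higher there with anti-CD3 alone (0.37, SE 0.09, adjusted p = 0.0023). In all, 2 of the 22 were higher and 3 lower with anti-CD3 alone, and 1 was higher and 4 lower with the drug. The drug raised 2 in the unconventional clone and 3 in the conventional clone and lowered 0 in both.

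Of 11 epithelial and fibroblast markers 1 was higher and 2 lower in the unconventional clone with anti-CD3 alone, and 2 were higher with the drug. Cdh1, E-cadherin, carried the largest of these differences, 2.10 (SE 0.21, limma adjusted p = 2.30e-07) with anti-CD3 alone and 4.17 (SE 0.21, adjusted p = 1.27e-11) with cyclosporine A. The drug raised Cdh1 alone among them in the unconventional clone, by 2.10 (SE 0.21), and none was called in the conventional clone. The mean over the list ran from 5.41 to 5.49 with cyclosporine A and from 5.01 to 5.32 without in the unconventional clone, against 4.98 to 5.24 and 5.00 to 5.12 in the conventional clone. Under the median of all values lay 6 of the 11 in both unconventional groups. In the conventional clone 6 lay under it with cyclosporine A and 7 without. Of 10 T cell markers 0 were higher and 3 lower in the unconventional clone with anti-CD3 alone, Cd8a (-2.19, SE 0.08) and Cd8b1 (-2.08, SE 0.07) among them, and 0 were higher and 5 lower with cyclosporine A. The drug raised 4 and lowered 2 of them in the unconventional clone, and raised 5 and lowered 1 in the conventional clone. The part of Cd68, Itgax and Cdh1 in the clone difference of the class II genes was not tested.

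**Figure D5:**
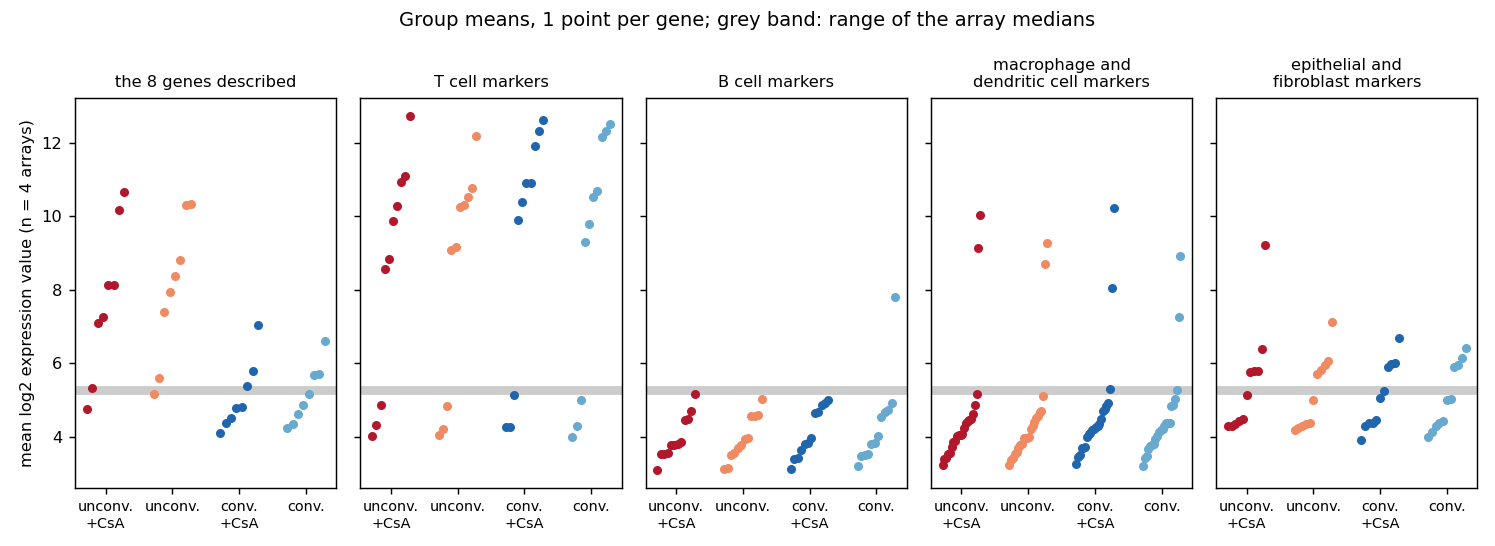
Mean log2 expression values (y axis, n = 4 arrays) of the 8 genes and of the marker lists, with a point per gene, in the unconventional clone with cyclosporine A (+CsA) and without, and in the conventional clone with and without; the grey band is the range of the array medians, 5.16 to 5.35. No B cell marker lies above the band but Ebf1 in the conventional clone without the drug, and Itgax and Cd68 stand above it in all 4 groups.

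None of the transcripts whose profile over the 16 arrays was nearest to each gene is in the pathway lists above. Likeness was the root mean square difference of log2 values over the 16 arrays, each profile centred on its own mean, among 19931 genes, for those of the 8 genes whose group means spanned at least 1 log2 unit. Nearest to H2-Aa were Poglut2 (0.316), Zfp280d (0.330) and Dio2, an iodothyronine deiodinase (0.340), with H2-Ab1 at 0.642 the nearest of the 8 genes. Nearest to H2-Ab1 were Stc2, Pkp4 and Tle1 (0.304, 0.337 and 0.374), and H2-Eb1 at 0.465. Nearest to H2-Eb1 were Slc43a1, an amino acid transporter, Gng12 and Insr, the insulin receptor (0.268, 0.296 and 0.308), and H2-Ab1. Nearest to Cd74 were the imprinted gene Peg10, Naalad2 and 2210016F16Rik (0.467, 0.475 and 0.478), and Ifi30 at 0.650. Ifi30 had the closest match of all, Pla2g4a, the cytosolic phospholipase A2, at 0.150. The group means of Pla2g4a were 9.95 with cyclosporine A and 9.48 without in the unconventional clone, against 4.10 and 4.02 in the conventional clone. These distances are a description over 16 arrays of 2 clones, and any gene that is high in 1 clone by a like amount comes out near.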

How the data were processed

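The authors deposited 1 log2 value for each probe set of an Affymetrix whole-transcript array. The submitters' processing notes name RMA, GCOS and Partek 6.2 without their roles. The log2 scale was taken from the range of the values. The genome build is not given in the sources used here. All 28853 probe sets of the 16 arrays were kept as deposited; 21789 have 1 gene symbol in the platform annotation, 1621 have several and 5443 have none here, and 99.6% of those with 1 symbol have an Entrez ID in RefSeq's GRCm38.p6 gene table, with 0 symbols changed.

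limma 3.58.1 in R 4.3.3 (lmFit, contrasts.fit, eBayes) fitted 1 mean per group over the 16 arrays, with 12 residual degrees of freedom. p-values were adjusted by Benjamini-Hochberg over all probe sets and called under 0.05. The fit was tested on simulated data. The 8 genes and the 13 lists were chosen with earlier results of these data known. Of 162 genes listed, 142 have a probe set of their own; the others were not analysed here. The genes named were the 8, up to 3 called genes with the largest change per list and comparison, a fixed set of factors, and the 3 nearest profiles. A gene was read from its probe set with the highest mean. Alternatives were quantile normalization, median centring, probe sets with a mean of at least 6, 1 probe set per gene, trend and robust moderation, only the groups of a comparison, the replicate number as a block and each array left out.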

Additional observations from a re-analysis of the deposited data

Results flagged for a closer look

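Of 156 groups of 4 arrays, over 39 genes, 7 held an array whose gap to the others was a larger share of the group's range than Dixon's critical value allows; chance alone flags about 1 such group in 20. For the class II genes this was the conventional clone with anti-CD3 alone, where 1 array had H2-Aa at 4.60 and the other 3 had 4.10 to 4.11. In the unconventional clone with cyclosporine A, 1 array had Rfx5 at 7.32 (others 7.20 to 7.22), 1 had Ctsd at 12.58 (others 12.46 to 12.47) and 1 had Cd68 at 9.04 (others 9.16 to 9.18). In the unconventional clone with anti-CD3 alone 1 array had Lgmn at 7.53 (others 7.30 to 7.32). In the conventional clone with cyclosporine A 1 array had Cdh1 at 5.21 (others 4.99 to 5.01), and with anti-CD3 alone 1 had Ebf1 at 7.99 (others 7.72 to 7.74).

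Differences of the cyclosporine A effect are given as log2 effect in the unconventional minus that in the conventional clone. Of the 8 genes, which were chosen on these arrays so that their values are only a description, Cd74 at 1.14, the H2-DMb1 probe set at -0.55 and H2-Ab1 at -1.01 were called, 3 of 8 where 12.9% of all probe sets were called. The other genes below are listed because limma called their difference, among the 39 genes looked at. Those 39 were chosen with earlier results of these arrays known, so their values are a description too and no independent test. Among regulators of class II, the difference was 0.62 for Rfx5, 0.99 for Ezh2 and 1.30 for Prdm1. Among endosomal proteases it was 1.24 for Lgmn, 1.54 for Ctsz and -0.50 for Ctsd. In the interferon gamma axis it was -1.85 for Ifng, 0.53 for Ifngr1, 2.07 for Irf1, 2.45 for Socs3, 1.17 for Irgm1, 1.57 for Gbp5 and -0.63 for Irf8. The class I chaperone Tapbp had a difference of 1.19. Among cell type markers it was 2.07 for Cdh1, 2.72 for Ebf1, -0.57 for Itgax and -1.17 for Cd8a.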

How the results depend on the processing

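No log2 change of the 8 genes turned its direction with a call under any alternative. Over probe sets with a mean of at least 6, which leaves 5 of the 8 genes, cyclosporine A in the unconventional clone called 2 of them and the clone difference with anti-CD3 alone called 5. With 1 probe set per gene, which drops the shared one, cyclosporine A in the conventional clone called 1. With each array left out in turn, the genes called in the difference of the drug effects ran from 2, without the unconventional cyclosporine A array of replicate 1, to 5, without the unconventional anti-CD3 array of replicate 1, which added H2-Aa at -0.74 and H2-DMa. The call of H2-Ab1 there held without replicate 4 of the unconventional cyclosporine A arrays, replicate 1 of the unconventional anti-CD3 arrays or replicate 1 or 4 of the conventional cyclosporine A arrays, and was lost without any other array and under quantile normalization; over all 16 such fits, kept calls included, the difference ran from -1.24 to -0.83. The difference for H2-DMa, -0.47, was called under quantile normalization, median centring, 1 probe set per gene and both forms of the block. The numbers of genes called otherwise ran from 2 to 2 for the drug in the conventional clone, 4 to 5 in the unconventional clone, and 7 to 8 and 5 to 6 for the clone difference with anti-CD3 alone and under the drug.

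Over all probe sets, same-numbered arrays of the drug and anti-CD3 groups had deviations that correlated at -0.02 to 0.08 in the unconventional clone. In the conventional clone they correlated at -0.15 to 0.29. Of the drug arrays, 1 of 4 and 2 of 4 correlated best with their own number, so the numbers were not taken as pairs. In the unconventional clone every drug array lay under the anti-CD3 array of the same number for H2-Aa, H2-Ab1, Cd74, H2-DMa and Ciita. For H2-Eb1 and the H2-DMb1 probe set this did not hold on replicate 1, and for Ifi30 every drug array lay above. As the numbers were not taken as pairs, nothing is read from this. With the replicate number as a block, 4 genes were called for the drug in the unconventional clone, 2 in the conventional clone, 4 in the difference, and 8 and 5 in the clone difference with anti-CD3 alone and under the drug; a block within each clone, chosen after seeing the data, gave 4, 2 and 4. Values under or near the array medians limit what can be read of Ciita and H2-DMa. In the conventional clone they limit H2-Aa, H2-Ab1 and Ifi30, and Cd74 with cyclosporine A. H2-Eb1 lay only a little above the medians there, with group means of 5.80 with the drug and 5.70 without.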
